A study of Mus musculus with 8 samples.

Results

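Nefl, Sox10, S100b, Uchl1, Th, Dbh and Gfap are genes by which nerve fibres, sympathetic neurons and peripheral glia are recognised in tissue. They were taken by gene name from the non-control probes of the array, which gave 7 genes read by 12 of 41174 probes and by 30 spots. The pancreas was profiled from C57BL/6 pups aged 1 week that were wild type (WT, 4 samples) or Glis3KO2 (4 samples), and pups of both genotypes were kept with their own mothers. The labels name the Glis3KO2 allele without giving the deleted part of Glis3, a zinc finger transcription factor, and leave litters unstated, which means that the p-values reflect only how far these samples differed among themselves. Total RNA of the whole organ was read on single-colour Agilent arrays, 1 per sample.

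The pancreas is supplied by sympathetic, parasympathetic and sensory nerves, whose cell bodies lie mostly outside the organ, while small ganglia lie within it. Schwann cells ensheath the axons and form a sheet around islets. RNA made in a distant cell body reaches the organ only in part, so whole-pancreas RNA reads glia and intrinsic ganglia more directly than the incoming fibres. Several of these genes are not particular to nerve. Uchl1 is also made by islet endocrine cells, S100b by fat cells, and Gfap has been used as a marker of pancreatic stellate cells. In RNA from a whole organ, fewer cells of a type and less RNA per cell cannot be told apart.

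A probe is called well above background where the scanner software found its spot brighter than its surroundings, and each array had 31351 to 35628 such probes. Values below are log2 of the processed signal minus the array's 75th percentile, so that 0 is the level of a fairly bright probe. The acinar genes Cpa1 and Ctrb1 were between 8.65 and 9.74 on all 8 arrays, which checks the labelled tissue. Glis3 was well above background on 3 WT and 0 Glis3KO2 arrays by its probe. Its values were dim and the groups overlapped, from -6.06 to -5.35 in WT and from -6.43 to -5.93 in Glis3KO2. Each genotype had its own slide and scan, and the effects of slide and of genotype therefore cannot be told apart. Glis3KO2 replicates 3 and 4 stood apart, with scores of 39.8 and 59.0 on principal component 1 where the other 6 arrays had -26.0 to 0.46. Xist was well above background on 1 WT and 3 Glis3KO2 arrays. These were WT replicate 4, at 5.10, and Glis3KO2 replicates 1, 3 and 4, at 4.85, 4.86 and 4.72. Its level was therefore not balanced between the genotypes.

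None of the 7 genes passed the threshold between genotypes (limma, adjusted p of 0.05 over all tested probes), with adjusted p from 0.101 for Nefl to 0.994 for Th. Of all 33238 tested probes 0.256% passed, 0.0812% higher and 0.174% lower in Glis3KO2, and 2 of the 7 genes, Nefl and Dbh, had an unadjusted p under 0.05 against 8.97% of all tested probes. By brightest probe, 5 genes had a negative and 2 a positive difference, where 52% of all tested probes were negative, with a median log2 difference of -0.20 beside -0.009 over all tested probes. The neurofilament gene Nefl stood lowest, at -0.81, and Gfap highest, at 0.34. In 6 of the 7 genes the lowest of the 8 arrays was Glis3KO2 replicate 3 or 4, against 36.3% of all tested probes, and without those 2 arrays the median over the genes was -0.05.

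**Figure D1:**
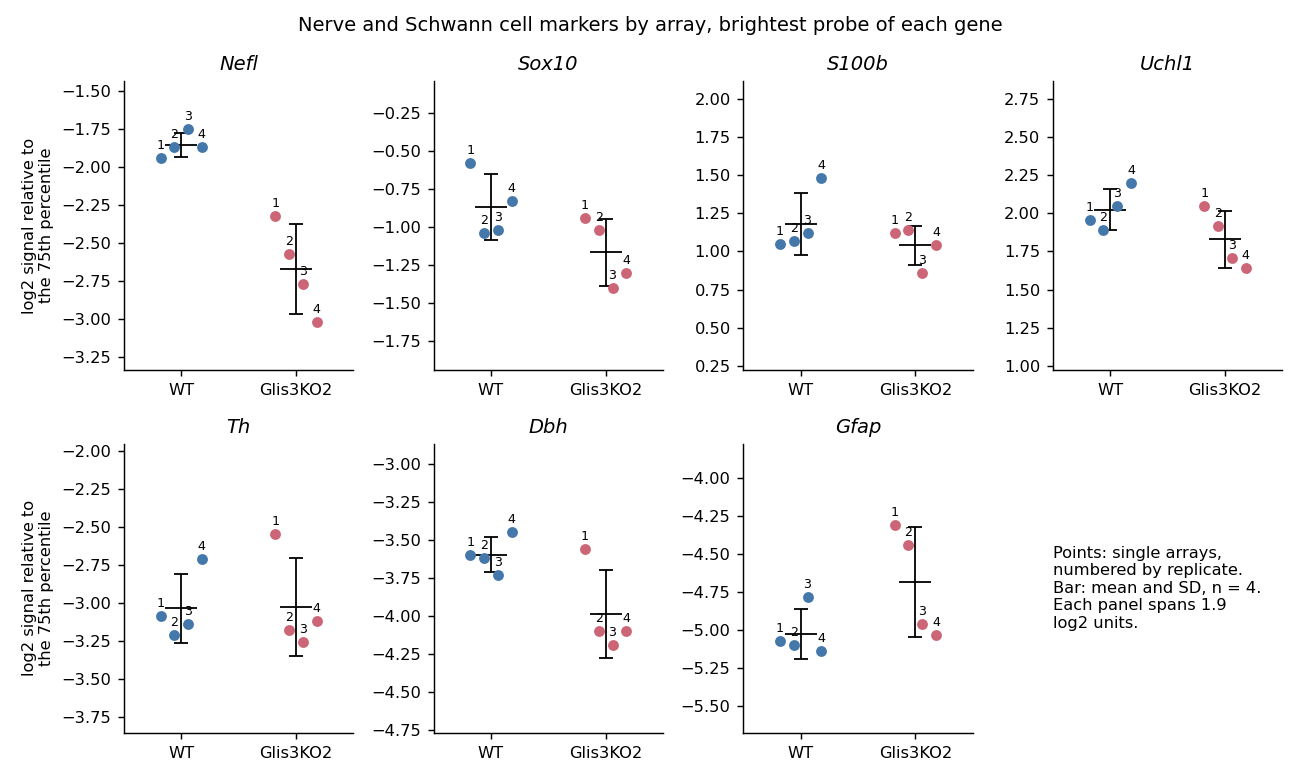
Signal on a log2 scale where 0 is an array's 75th percentile (y axis) of the brightest probe of each gene, for 4 WT and 4 Glis3KO2 arrays (x axis), with points numbered by replicate and bars for the mean and SD. The Glis3KO2 points of Nefl, from -3.02 to -2.32, all lie below the WT points, from -1.94 to -1.75, and the groups of the other 6 genes overlap.

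The array reads these genes through 60-base probes, and the probes of Nefl, and those of Sox10, map to separate positions in the genome. The first 30 bases of the probes of Nefl and Sox10 are shown, 5′ to 3′ and in lower case throughout since no part is singled out, because what can be said of these genes depends on how far their probes gave the same reading.
Nefl, A_51_P339934: gactttcaatgtgtgctatgaatttcctcc
Nefl, A_51_P168646: actgaagtgatctgcaattgaagtctcttt
Sox10, A_51_P346704: tgccttgcaccctttgctccagcgatacct
Sox10, A_52_P192625: tggacatcggggagatcagccacgaggtaa

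Nefl encodes the light chain of the neurofilaments, the intermediate filaments that fill large axons. Its brighter probe lies at 62946259 to 62946319 of chromosome 14, on the mm7 mouse build of the array's own annotation, and reads NM_010910. The WT arrays read -1.94, -1.87, -1.75 and -1.87, and the Glis3KO2 arrays -2.32, -2.57, -2.77 and -3.02, in order of replicate number here and below. The groups did not overlap, and the highest Glis3KO2 array lay below the lowest WT array. The mean was -1.86 ± 0.08 in WT and -2.67 ± 0.29 in Glis3KO2 (n = 4 each, ± SD). The log2 difference was -0.81 (SE 0.15, 95% interval -1.15 to -0.48, limma adjusted p = 0.101), which puts the WT level 1.76-fold above that of Glis3KO2. These intervals are not adjusted for the number of probes. By p-value the probe ranked 132 among 33238.

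The call for Nefl depended on the setting. Of 20 alternatives, 5 put it past the threshold, with limma adjusted p from 0.0337 with array weights to 0.0495 with scaling to the median. The highest limma adjusted p was 0.395, with the Xist level as a covariate, where the log2 difference was -0.78. The log2 difference kept its sign in all 20, between -0.93 and -0.56. Without Glis3KO2 replicate 1 it was -0.93 (limma adjusted p = 0.0393), and without Glis3KO2 replicates 3 and 4 it was -0.59 (limma adjusted p = 0.318).

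The second Nefl probe lies 1168 bases further along the same strand and reads the transcript AK149219. It read -2.85, -3.10, -2.66 and -2.89 in WT and -3.36, -3.26, -3.33 and -3.73 in Glis3KO2. Here too the groups did not overlap, and the log2 difference was -0.54 (SE 0.14, limma adjusted p = 0.259). Of all tested probes, 5.2% had groups without overlap, 3.35% lower and 1.86% higher in Glis3KO2. Both Nefl probes were measured on the same RNA, so they are not independent samples.

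The insulin genes, whose RNA is made by beta cells, were also lower on the same arrays. Ins2 was between 8.77 and 9.07 in WT and was 5.83, 5.31, 5.26 and 4.67 on Glis3KO2 replicates 1 to 4, the same ordering of the 4 arrays as the brighter Nefl probe but not as the second, which was highest on replicate 2. The part of islet cells in the Nefl difference was not tested.

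Dbh and Th encode enzymes of noradrenaline synthesis. Tyrosine hydroxylase, encoded by Th, makes the first and rate-limiting step, and dopamine beta-hydroxylase, encoded by Dbh, converts dopamine to noradrenaline inside vesicles, so that Dbh is the more particular marker of sympathetic neurons and of the adrenal medulla. The Dbh probe lies at 27188872 to 27188931 of chromosome 2 (mm7). It read -3.60, -3.62, -3.73 and -3.45 in WT and -3.56, -4.10, -4.19 and -4.10 in Glis3KO2. Of the Glis3KO2 arrays, 3 lay below every WT array and replicate 1 lay within the WT range. The mean was -3.60 ± 0.11 in WT and -3.99 ± 0.29 in Glis3KO2 (n = 4 each, ± SD), a log2 difference of -0.39 (SE 0.15, 95% interval -0.73 to -0.05, limma adjusted p = 0.495). Without Glis3KO2 replicate 1 it was -0.53 (limma adjusted p = 0.109) and without replicates 3 and 4 it was -0.23.

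Th was read with repeated spots above background, because its probe, at 139321292 to 139321351 of chromosome 7 (mm7, minus strand), is printed as 10 spots on every array. It read -3.09, -3.21, -3.14 and -2.71 in WT and -2.55, -3.18, -3.26 and -3.12 in Glis3KO2. WT replicate 4 and Glis3KO2 replicate 1 stood above the other 6 arrays, and each group had arrays both above and below arrays of the other. The SD between the spots of 1 array was 0.06 to 0.12, whereas the SD between arrays was 0.23 in WT and 0.32 in Glis3KO2. On WT replicate 4 the lowest spot was -2.86 and on Glis3KO2 replicate 1 it was -2.74, both above the highest spot of any of the other 6 arrays, -2.88. The log2 difference between genotypes was 0.01 (SE 0.18, 95% interval -0.40 to 0.42, limma adjusted p = 0.994), and at the ends of that interval the WT level is 0.749-fold and 1.32-fold that of Glis3KO2. Its sign was negative in 7 of 20 alternatives and positive in the others.

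The same pair of arrays, WT replicate 4 and Glis3KO2 replicate 1, was also the highest of its group for Dbh, and likewise for the brighter Uchl1 probe. On Glis3KO2 replicate 1 Dbh was -3.56 against -4.10 for the nearest array of its group, and Th was -2.55 against -3.12. Across the 8 arrays the Pearson correlation of Th was 0.64 with Dbh, 0.65 with Uchl1 and 0.62 with S100b. This is a description over arrays that share slide and genotype.

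**Figure D2:**
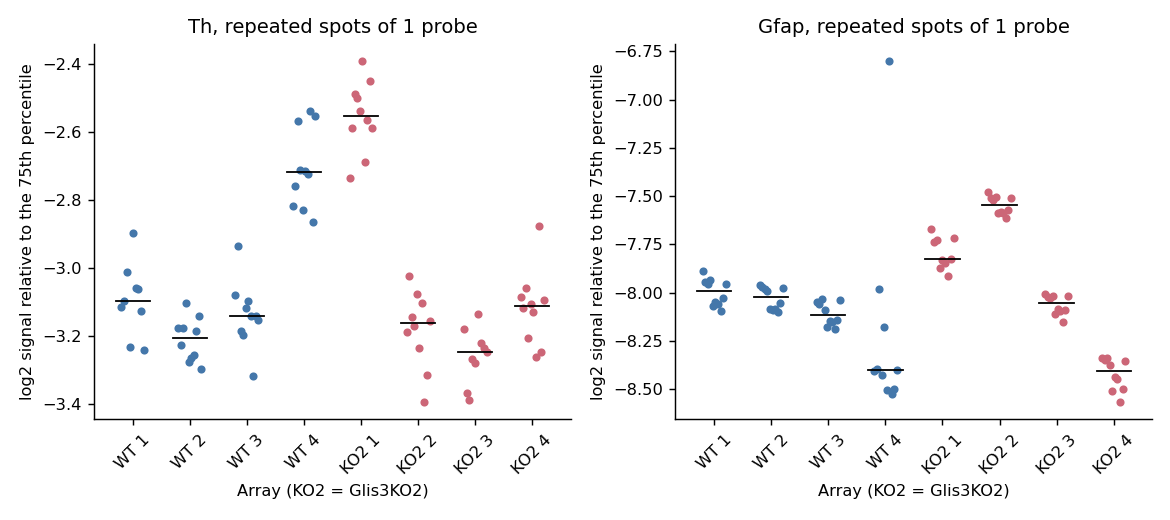
Signal on a log2 scale where 0 is an array's 75th percentile (y axis) of each repeated spot of the Th probe and of 1 Gfap probe on the 8 arrays (x axis), with lines at the medians. Th spots of 1 array lie close together (SD 0.06 to 0.12), with WT replicate 4 and Glis3KO2 replicate 1 above the others, and no Gfap spot here was well above background.

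Sox10 encodes the transcription factor that specifies and maintains Schwann cells and other neural crest glia. Its readable probe lies at 79238027 to 79238086 of chromosome 15 (mm7, minus strand). It read -0.58, -1.04, -1.02 and -0.83 in WT and -0.94, -1.02, -1.40 and -1.30 in Glis3KO2. Glis3KO2 replicates 3 and 4 lay below every WT array, and replicates 1 and 2 lay within the WT range. The mean was -0.87 ± 0.22 in WT and -1.17 ± 0.22 in Glis3KO2 (n = 4 each, ± SD), a log2 difference of -0.30 (SE 0.15, 95% interval -0.64 to 0.04, limma adjusted p = 0.608). Without Glis3KO2 replicates 3 and 4 the difference was -0.12. The other Sox10 probe, 1319 bases away by the array design, was not well above background on any of the 8 arrays, with processed signals of 2.61 to 7.14, and gives no comparison.

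S100b encodes a calcium-binding protein of Schwann cells and satellite glia. Its probe, at 75915615 to 75915674 of chromosome 10 (mm7), read 1.05, 1.07, 1.12 and 1.48 in WT and 1.12, 1.14, 0.86 and 1.04 in Glis3KO2. The groups overlapped, with WT replicate 4 high and Glis3KO2 replicate 3 low. The log2 difference was -0.14 (SE 0.13, 95% interval -0.43 to 0.15, limma adjusted p = 0.800), and it was -0.04 without WT replicate 4, -0.08 without Glis3KO2 replicate 3 and -0.05 without Glis3KO2 replicates 3 and 4. At the ends of that interval the WT level is 1.35-fold above and 0.902-fold that of Glis3KO2.

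Uchl1 encodes the ubiquitin hydrolase known as PGP9.5, which is abundant in neurons and present in islet endocrine cells. Its brighter probe, at 66042692 to 66042752 of chromosome 5 (mm7), read 1.96, 1.89, 2.05 and 2.20 in WT and 2.05, 1.92, 1.71 and 1.64 in Glis3KO2. Glis3KO2 replicates 3 and 4 were below all WT arrays and replicates 1 and 2 were not. The log2 difference was -0.20 (SE 0.13, 95% interval -0.48 to 0.09, limma adjusted p = 0.697), and without those 2 arrays it was -0.04. The second Uchl1 probe, whose mapped ends lie 1092 bases apart so that it joins parts of the transcript separated in the genome, had a difference of -0.10 (SE 0.11, limma adjusted p = 0.846). Both Uchl1 probes had their lowest value on Glis3KO2 replicate 4 and their highest on WT replicate 4.

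Gfap encodes the intermediate filament of astrocytes, which is also made by non-myelinating Schwann cells and enteric glia. Its 3 probes gave different readings. The probe of NM_010277, whose mapped ends on chromosome 11 lie 2450 bases apart, was well above background on all 8 arrays but dim, with processed signals of 13.4 to 19.2 in WT and 16.7 to 26.0 in Glis3KO2. It read -5.07, -5.10, -4.78 and -5.14 in WT and -4.31, -4.44, -4.96 and -5.03 in Glis3KO2. Glis3KO2 replicates 1 and 2 lay above every WT array, while replicates 3 and 4 lay within the WT range. The difference was 0.34 (SE 0.18, 95% interval -0.07 to 0.75, limma adjusted p = 0.640), and it was -0.04 with normexp background correction and 0.64 without Glis3KO2 replicates 3 and 4 (limma adjusted p = 0.344).

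The Gfap probe of AK140151 lies within the span of the first and was well above background on 3 WT and 2 Glis3KO2 arrays, with a difference of -0.13 (SE 0.28, limma adjusted p = 0.934). The Gfap probe of K01347 is printed as 10 spots, and 0 of the 80 spots on the 8 arrays were well above background, with processed signals of 1.37 to 4.52. Gfap was therefore read by a pair of dim probes whose differences had opposite signs, and neither passed the threshold.

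**Figure D3:**
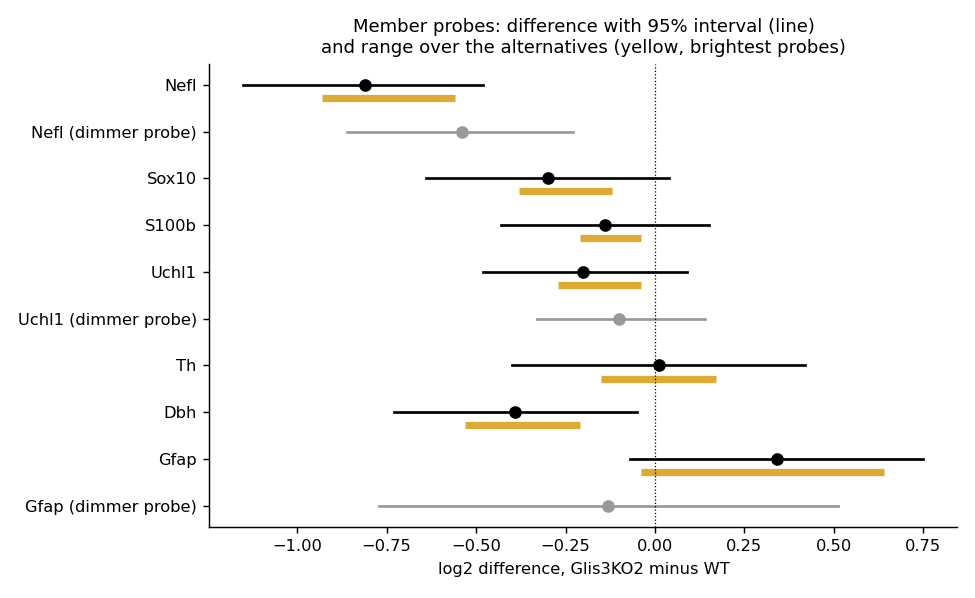
Log2 difference between Glis3KO2 and WT (x axis) for the 10 tested probes of the 7 genes, with the point estimate, its 95% interval from limma and, for brightest probes, the range over 20 alternatives in yellow. The intervals of both Nefl probes and of Dbh lie below 0 before adjustment for the number of probes, and those of the others include 0.

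The wider set of nerve genes was read by lists covering axons, glia, transmitters, trophic factors and receptors, with 1 brightest probe per gene. Among 20 genes of neurons and axons, 0 rose, 0 fell and 20 did not pass the threshold. Their median log2 difference was -0.27, or -0.16 with normexp background correction. In 7 of them the Glis3KO2 arrays all lay below the WT arrays, against 3.35% of all tested probes, and in 1, Dcx, they all lay above. The 7 were Elavl4, Ina, Snap25, Prph, Stmn3, Syp and Sncg, chosen for that pattern after their values were seen. Elavl4, a neuronal RNA-binding protein, was -0.26 ± 0.18 in WT and -0.91 ± 0.22 in Glis3KO2 (n = 4 each, ± SD, log2 difference -0.65, limma adjusted p = 0.173). Ina, a further neurofilament subunit, had a difference of -0.58 (limma adjusted p = 0.232), with 3 of 4 Glis3KO2 arrays well above background.

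Prph, the peripheral neuron filament peripherin, had a log2 difference of -0.56 (limma adjusted p = 0.430), and Nefm, the medium neurofilament chain, -0.46 (limma adjusted p = 0.517) with overlapping groups. The heavy chain gene Nefh had a difference of 0.11 (95% interval -0.63 to 0.85). Dcx, a microtubule protein of migrating neurons, had a positive difference of 0.41 (limma adjusted p = 0.254). Without Glis3KO2 replicates 3 and 4 the list's median was -0.14. In that smaller comparison 7 genes lay below all WT arrays, against 7.11% of all tested probes. That count could not fall, since a gene with every Glis3KO2 array below WT keeps that pattern when arrays are left out.

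Several genes of that list, such as Snap25 and Syp, encode parts of the vesicle release machinery that islet endocrine cells also use. On the same arrays 7 of 10 beta cell genes fell, 0 rose and 3 did not pass, with a median of -1.38. The 3 that did not pass were Iapp, Pdx1 and Mafa, with log2 differences of 0.45, -0.06 and -0.75. The summed linear level of the beta cell list, in units of the 75th percentile, was 734 to 904 in WT and 192 to 397 in Glis3KO2. Such a sum weighs the brightest genes most. Here it rests mainly on Ins2 and Ins1, with WT means of 8.97 and 7.61. Whether endocrine RNA has a part in the differences of the axonal genes was not tested.

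Among glial genes, 1 lay below all WT arrays in every Glis3KO2 array and 1 lay above, beside 3.35% and 1.86% of all tested probes. Whether the glial and axonal lists differ was not tested. Of 26 genes of Schwann cells and satellite glia 25 were tested, 0 rose and 0 fell, and the median log2 difference was -0.07, with 14 negative and 11 positive, and -0.12 to -0.02 with single arrays left out. The myelin genes Mbp and Pmp22 had differences of 0.07 and -0.06, both with overlapping groups. Ngfr, the low-affinity neurotrophin receptor of immature Schwann cells and of mesenchyme, was 0.79 ± 0.19 in WT and 1.24 ± 0.19 in Glis3KO2 (n = 4 each, ± SD) with groups that did not overlap, a difference of 0.46 (limma adjusted p = 0.359). Ednrb, the endothelin receptor of neural crest cells, had a difference of -0.27 (limma adjusted p = 0.503). The summed linear level of the list was 46.5 to 51.0 in WT and 48.1 to 50.1 in Glis3KO2. That sum rests mainly on the brightest genes, such as Pmp22, Matn2 and Mbp, with WT means of 3.80, 3.26 and 2.83. It therefore says little of the dimmer glial genes. Cdh19, a cadherin of Schwann cell precursors, was not well above background on any array.

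Among 20 genes of catecholamine neurons 16 were tested, 0 rose and 0 fell, and the median was -0.07, with -0.13 to 0.01 when single arrays were left out. Maob, a monoamine oxidase, had a log2 difference of -0.50 with groups that did not overlap (limma adjusted p = 0.375), and Slc18a1, a vesicular monoamine transporter, -0.33 (limma adjusted p = 0.503). The noradrenaline transporter Slc6a2 was well above background on 1 WT and 0 Glis3KO2 arrays and was not tested. Ret and Chrna3 were not well above background on any array. The autonomic transcription factors Phox2a and Hand2 had differences of -0.04 and 0.20. Differences in the list ran from -1.17 to 0.30. The lowest was that of Chrnb4 (limma adjusted p = 0.515), with overlapping groups. It was well above background on 4 WT and 1 Glis3KO2 arrays.

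The adrenal gland lies near the pancreas and its medulla makes Th and Dbh. Of 9 adrenal genes 8 had a probe and 7 were tested, with 0 past the threshold and a median log2 difference of 0.02. Pnmt, the enzyme that makes adrenaline, was between -1.86 and -1.78 in WT and between -1.92 and -1.46 in Glis3KO2. The summed level of the list was 0.952 to 1.17 in WT and 0.912 to 1.17 in Glis3KO2.

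Of 9 genes of cholinergic and peptide neurons 8 were tested, with 0 past the threshold and a median of 0.16, which was 0.03 without Glis3KO2 replicate 1 and 0.00 with normexp background correction. Vip, the vasoactive intestinal peptide of intrinsic and parasympathetic neurons, was -3.06 ± 0.18 in WT and -3.81 ± 0.27 in Glis3KO2 (n = 4 each, ± SD), with groups that did not overlap and a log2 difference of -0.75 (limma adjusted p = 0.144). Slc5a7, the choline transporter of cholinergic terminals, had a difference of -0.74 (limma adjusted p = 0.296), also without overlap, with 3 of 4 Glis3KO2 arrays well above background. Chat and Slc18a3, which make and load acetylcholine, had differences of 0.14 and 0.31 with overlapping groups.

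Sensory neuron genes were tested for 4 of the 7 with a probe, with 0 past the threshold. Calca, the gene of calcitonin and CGRP, had a log2 difference of 0.23 and Tac1, the gene of substance P, 0.24 (limma adjusted p = 0.725 and 0.726). Of 16 neurotrophic ligands and receptors, 0 passed, and the median was 0.05, or 0.16 without Glis3KO2 replicates 3 and 4 and -0.03 with normexp. Bdnf, a neurotrophin, had a difference of 0.38 without overlap (limma adjusted p = 0.314), and Gdnf, a survival factor of enteric and sympathetic precursors, 0.50 (limma adjusted p = 0.365).

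The adrenergic receptors, the targets of sympathetic signalling, were tested for 8 of 9 genes with 0 past the threshold and a median of 0.01, which was 0.19 without Glis3KO2 replicates 3 and 4 and -0.09 without Glis3KO2 replicate 1. Adra1d had a log2 difference of 0.51 with groups that did not overlap (limma adjusted p = 0.261). Adra2a, through which adrenaline inhibits insulin release, had a difference of -0.03 (95% interval -0.38 to 0.31).

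Other cell types that can carry these markers were read the same way. Stellate cell, pericyte and smooth muscle genes had 0 of 12 past the threshold, a median of 0.04 and a summed level of 116 to 157 in WT and 132 to 161 in Glis3KO2. Among them Vim had a log2 difference of 0.22 and Rgs5 of -0.18. Fat cell genes had 0 of 9 past the threshold and a median of 0.01, with Pparg at 0.15 and Cfd at -0.64, whose SD was 1.74 in WT and 2.28 in Glis3KO2. Of the pigment cell genes, which share Sox10 as a regulator, 3 of 6 were tested and 0 passed, with Dct at 0.45 and Mitf at -0.31, and Tyr and Tyrp1 were not well above background on any array. In the list of 10 islet genes outside the beta cell list 2 fell, Ppy and Irx2, with log2 differences of -2.01 and -0.88, and 8 did not pass. The median of that list was -0.54. In 6 of its genes the Glis3KO2 arrays all lay below the WT arrays, against 3.35% of all tested probes.

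**Figure D4:**
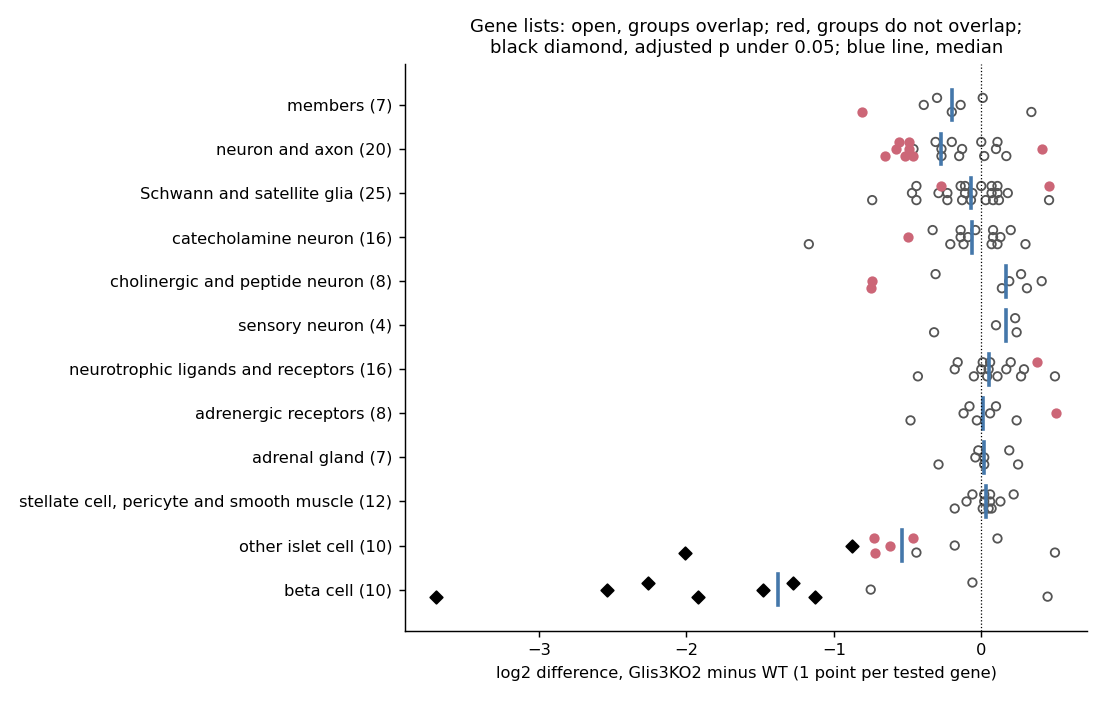
Log2 difference between Glis3KO2 and WT (x axis) of each tested gene in 12 lists (y axis, number of tested genes in brackets), with blue lines at the medians. Red points, whose groups do not overlap, lie mostly below 0 in the neuron and axon list (7 of 8), while the 25 tested glial genes centre on -0.07 and black diamonds, past the threshold, occur in the islet lists.

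For each gene the 3 others with the most similar profile over the 8 arrays were read from 15591 genes above background throughout. With so many genes and 8 arrays, high correlations are common, and these are given as a description. For Nefl they were Olfr910, Map3k15 and Slc30a8, the zinc transporter of insulin granules, with Pearson correlations of 0.99, 0.98 and 0.98. For Sox10 they were Grap, Acot5 and Arhgef1 (0.99, 0.99 and 0.98), for Uchl1 Rbp7, Ushbp1 and Mesp1 (0.99, 0.98 and 0.98), and for S100b 1600012P17Rik, Irf7 and 2810406K13Rik (0.98, 0.96 and 0.96). For Th they were 4930505O20Rik, 1700031A10Rik and Ltk (0.99, 0.97 and 0.97), for Dbh 4921531C22Rik, 6330412F12Rik and Phf20l1 (0.98, 0.98 and 0.97), and for Gfap Isl2, Gpr84 and Khdrbs2 (0.94, 0.91 and 0.90). Among the 7 genes themselves, Dbh ran closest with Nefl (0.84) and Uchl1 (0.82), and Gfap correlated with none of them above 0.34.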

How the data were processed

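Total RNA (500 ng per sample, per the labels' protocols) was labelled with Cy3. The authors extracted spots in Agilent Feature Extraction 9.5.3.1, per the file headers (version 9.5 in the submitters' processing notes), with spot positions on build mm7, and the deposited values are linear spot intensity with detrending and no scaling between arrays. The deposited series table was equal to them at all 45018 spots.

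Here each array was scaled to the 75th percentile of its 43379 non-control spots and then put on a log2 scale. Outlier-flagged spots were left out, spots of a probe were averaged, and probes well above background on at least 4 of 8 arrays were tested (33238 of 41174). Genotypes were compared with limma 3.58.1 in R 4.3.3 (lmFit and eBayes, 2-sided, Benjamini-Hochberg over all tested probes at 0.05), after a check on simulated data. Scaling to a percentile hides a shift shared by most genes. A gene stands by its brightest probe. The number of arrays limits precision. Python 3.11.15 drew the figures. The 7 genes, the 13 other lists, the naming rule and the alternatives were chosen with earlier results of these data known. The rule named, per list, up to 4 genes past the threshold or else the 2 with the smallest p. Some genes and a probe sequence are not reported here. Genes beyond the rule, named for their role or for a pattern, were chosen after values were seen. Of the alternatives, 20 were run: background correction, normalization, scaling, filters, replicate block, variance model, array weights, source table, Xist level as a covariate, mean over probes, and arrays left out.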

Additional observations from a re-analysis of the deposited data

Results flagged for a closer look

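In 6 of 80 groups of 4 arrays, covering the 12 probes and the genes named from the lists, the highest or lowest array stood apart from the rest by Dixon's ratio at its 95% critical value, and chance gives this in about 1 in 20 groups. S100b on WT replicate 4 was 1.48, against 1.12 for the nearest WT array. Dbh on Glis3KO2 replicate 1 was -3.56, against -4.10 for the nearest. On that array Ina was also highest, at -5.08 against -5.55, and so was the pigment cell gene Dct, at -1.68 against -2.29. Gdnf on WT replicate 4 was -3.87, against -4.27 for the nearest. Ucn3, a peptide of mature beta cells, was lowest on Glis3KO2 replicate 4, at -4.32 against -3.37.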

How the results depend on the processing

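The count of the 7 genes past the threshold was 0, and it was 1, Nefl in each case, with quantile normalization (log2 difference -0.78), scaling to the median (-0.79), array weights (-0.86), a robust eBayes with a mean-variance trend (-0.81) and without Glis3KO2 replicate 1, so leaving out single arrays gave 0 to 1. The median over the 7 genes stayed within its spread between arrays, from -0.27 to -0.14 with single arrays left out. Sox10, S100b, Uchl1 and Dbh had a negative difference in all 20 alternatives, while Th and Gfap changed sign in some, and none of these 6 passed the threshold in any. The filters, replicate block, variance model and source table left these differences unchanged, so no sign could change there. Of all tested probes 85 passed, and the count was 51 with no filter on dim probes, 142 with trend and robust settings, 11 without Glis3KO2 replicates 3 and 4, 27 with the Xist covariate, and 35 to 96 with single arrays left out. The cause was not tested. With the replicate block the count was 15 and Nefl had an adjusted p of 0.288 by limma. Same-numbered samples had deviation correlations of 0.129, 0.089, 0.237 and -0.038, and 5 of 8 samples correlated best with their own number. These values do not settle whether the numbers pair the samples. The main fit left the samples unpaired, and the replicate block gives the paired reading. Dim probes, such as those of Gfap, limit what can be read.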
